A study of Bos taurus with 15 samples.

Results

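Unplaced sequences are the stretches of the cattle genome assembly that have not been assigned to a chromosome. Every position whose sequence name was not chr1 to chr29, X, Y, M or MT was taken, which gave 2503 names over 15 animals, and the 1048 names with at least 20 listed positions in each of 6 heifers were kept and described (41.9% of the names). The kept sequences held 87.4 to 92.6% of the unplaced calls of a heifer and 84.5 to 92.9% of those of a calf. A position is 1 cytosine of a CpG, a call is 1 read of that cytosine, and the level is the percentage of calls that were methylated, pooled over the positions of a sequence in 1 animal.

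Unplaced sequences of a mammalian assembly are often short and repetitive, because copies of a tandem repeat are hard to order. Cattle carry large blocks of satellite DNA, tandem repeats that sit mainly near the centromeres. Methylation of the cytosine in a CpG is the usual state of such repeats in adult tissues, where it accompanies silent, compact chromatin.

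Holstein animals were gestated by dams that were either cooled (IUCL) or heat stressed (IUHT) during the last 6 to 7 weeks of gestation. Liver of bull calves at birth came from 5 IUCL-B calves (numbers 1 to 5) and 4 IUHT-B calves (numbers 2 to 5), and mammary gland of heifers on day 21 of the first lactation came from 3 IUCL-H and 3 IUHT-H heifers. Both groups had shade, and cooled dams also had fans and soakers. DNA was cut with MspI and TaqαI, short fragments were bisulfite converted and sequenced, so that the liver and the mammary libraries were both reduced representation libraries. Tissue, sex, age and the coverage of the libraries changed together and cannot be told apart. Total calls ranged from 13949097 to 20240625 in heifers and from 10484911 to 38221835 in calves. Heifers had 1.78 to 2.02 calls per position on chr1-29 and calves 6.34 to 52.7, and IUCL-B calves 4 and 5 covered more unplaced positions than the other calves (38377 and 44316 against at most 28643).

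The minimum on positions set which names were described. In 159 kept names the shallowest heifer had 20 to 24 positions, with a median level of 75.01% and a median depth of 6.02 calls per position. The 154 names with 15 to 19 positions that fell outside had a median level of 77.9% and 4.92 calls per position. All kept names had calls in every heifer, 848 had calls in every calf, and 519 had at least 5 positions in each calf. The last listed position of a sequence, the only measure of its size used here, had a median of 1728 and ranged from 830 to 179675, and it was under 2 kb in 574 sequences and 10 kb or more in 87.

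The kept sequences were divided into 3 classes by the spacing of their CpGs, and the median methylation level differed between the classes. In 418 sequences (39.9%) the gaps between neighbouring CpGs were often 1 or 2 steps of 23 bases, and the median level over heifers was 57.9%. In another 341 (32.5%) a CpG was often followed by another exactly 46 bases on, in a different internal pattern, and the median level was 82.2%. The remaining 289 sequences (27.6%) had neither feature to that extent and a median level of 78.7%. Such regular spacing is a feature of tandem repeats. The classes used the positions listed in any heifer and no methylation value, but the measures and the cut-offs were chosen after the levels had been seen, so the classes are given without a test.

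A sequence was put in the 23-base class where at least 20% of the gaps between neighbouring CpGs were of 22 to 24 or 45 to 47 bases, after the strands of a CpG were merged. The most frequent gap in the class was 23 bases (29.9% of gaps), followed by 22 bases (11.9%) and 46 bases (6.60%). On chr1-29, 5 kb windows that met the same position minimum had 1.31% of gaps at 23 bases and 1.37% at 22. The median sequence of the class had 61.2% of its gaps at these lengths, and the class held 418 of 1048 sequences but 206 of 87278 windows (0.236%). These shares are of unlike units, as the median last position in the class was 1240 and a window spans 5 kb.

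The 46-base class took the other sequences in which at least 20% of CpGs had a CpG 46 bases downstream. The rule of the 23-base class was applied first, and many of its members also met this one. Its median sequence had 21.6% of CpGs with a CpG 46 bases downstream, against 28.7% in the 46-base class. Gaps of 2 bases made up 30.4% of its gaps, gaps of 11 bases 9.92%, of 12 bases 8.40% and of 19 bases 7.07%. In the windows of chr1-29 gaps of 2, 11, 12 and 19 bases made up 4.07%, 2.25%, 2.31% and 1.54%. Only 28 windows (0.0321%) met the rule for the class. The median last position in the class, 2876, was also below the 5 kb of a window. The size of this class depended on the cut-off, with 427 sequences at a minimum of 10% of CpGs and 150 at 30%, at median levels of 82.2 and 82.1%. Sequences just below the cut-off were alike in level: the 54 sequences with 15 to 20% of CpGs at that step had a median level of 82.3% and the 98 with 20 to 25% had 82.6%. Near the cut-off of the 23-base class, the 16 sequences with 10 to 20% of gaps at 23-base steps had a median of 67.1% and the 16 with 20 to 30% had 60.9%, and the class held 434 sequences at a minimum of 10% and 402 at 30%.

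The distribution of levels had a lower group that consisted mostly of the 23-base class. Of the 451 sequences with a mean level under 70%, 388 (86.0%) were of the 23-base class, and 388 of its 418 members (92.8%) lay under 70%. Of the 374 sequences at 80% or more, 256 (68.4%) were of the 46-base class, and 333 of its 341 members (97.7%) lay at 75% or more. The quartiles were 53.4 and 62.3% in the 23-base class, 80.1 and 84.2% in the 46-base class, and 71.4 and 82.5% in the remaining sequences. Over all sequences the median was 75.6% (23.5 to 92.6%), against 80.01% (1.69 to 98.2%) over windows of chr1-29. No unplaced sequence had a mean level under 20%, where 3.74% of windows lay, and 397 sequences (37.9%) lay from 50 to 70%, where 14.1% of windows lay. The windows of chr1-29 with the same spacing had similar levels, with medians of 63.2% for the 206 windows of the 23-base class and 81.9% for the 28 of the 46-base class.

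**Figure D1:**
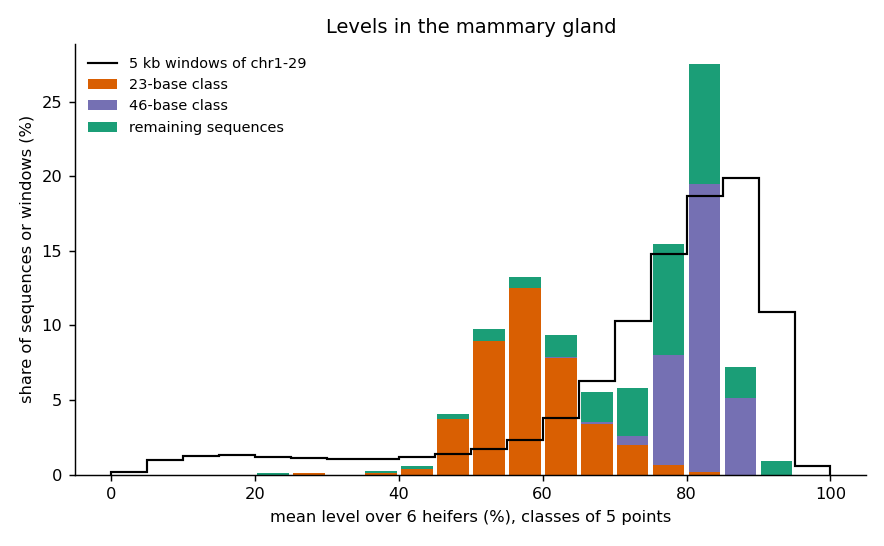
Histogram of the mean methylation level over 6 heifers of 1048 unplaced sequences (stacked bars, coloured by class of CpG spacing) and of 87278 windows of 5 kb on chr1-29 (black line), each as a percentage of its own total, in classes of 5 points on the x axis. The 23-base class forms the lower group, with a median of 57.9%, and the 46-base class the narrow upper group, with a median of 82.2%.

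Every animal showed the gap between the classes. Pooled over the class, the 23-base level was 60.2, 60.5 and 61.8% in IUCL-H and 58.5, 58.5 and 60.0% in IUHT-H. The 46-base level was 83.2, 83.1 and 82.7% in IUCL-H and 81.5, 83.3 and 82.9% in IUHT-H. Hence the 46-base class lay above the 23-base class by 20.8 to 24.8 points in 6 of 6 heifers (mean 22.9 ± 1.26, SD, n = 6). The positions of calves did not enter the classes. Their values are still a description, as they cover the same sequences and the cut-offs were chosen after levels had been seen. In calves the 23-base class had levels of 64.4 to 69.3% (median 67.4%, n = 9) and the 46-base class 83.9 to 87.7% (median 84.5%). The gap was 15.5 to 21.5 points in 9 of 9 calves (mean 18.1 ± 1.75, SD, n = 9).

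In heifers the levels inside the 23-base class were intermediate at single sites too. Of 1993 sites of the class with more than 10 reads in every heifer, 1594 (79.98%) had a mean level of 20 to 80%, 16.1% lay over 80% and 3.96% under 20%. In the 46-base class 358 of 1205 sites (29.7%) lay from 20 to 80% and 69.5% over 80%. On the remaining sequences 338 of 689 sites (49.06%) lay from 20 to 80%, and on chr1-29 7106 of 13697 sites (51.9%). The median site was at 59.7% in the 23-base class and at 86.1% in the 46-base class. Only 17 sites of the 23-base class had more than 10 reads in every calf. Their median was 78.8% in liver, with 58.8% of them from 20 to 80% and 41.2% over 80%. Of 98 liver sites on the remaining sequences 68.4% lay from 20 to 80%, and of 32 sites of the 46-base class 18.75%.

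Size and class were related but not the same. Of the 23-base class 384 sequences (91.9%) ended under 2 kb, against 115 (33.7%) of the 46-base class and 75 (26.0%) of the remaining sequences. Within the sequences under 2 kb the median level was 58.0% in the 23-base class and 82.7% in the 46-base class. Within those of 2 kb or more it was 56.4% and 82.0%, so that the levels of a class moved little with size. Over all 1048 sequences the last position and the mean level had a Spearman rho of 0.48, given as a description, since the sequences share libraries.

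Reads were more densely piled on the unplaced sequences than on chr1-29 in 6 of 6 heifers and in 7 of 9 calves, the exceptions being IUCL-B 2 and IUHT-B 3. A heifer had 5.33 to 7.24 calls per position there, which was 2.96 to 3.78 times its value on chr1-29 (mean 3.39 ± 0.36, SD, n = 6). In calves the ratio was 0.795 to 2.18 (mean 1.36 ± 0.50, SD, n = 9). No calf reached the lowest heifer. The difference of -2.02 had p = 0.0001998, the smallest that the exact permutation test over 5005 splits allows, and 0.00280 after Benjamini-Hochberg adjustment over the 14 tests of whole-set values. The kept names had been chosen by their positions in heifers, with no minimum in calves, and over all unplaced names the difference was -1.97 (exact permutation test, p = 0.0001998). Maternal treatment groups differed by less than their spread, by -0.18 in mammary gland (exact permutation test, p = 0.7, where 0.1 is the smallest possible) and by -0.20 in liver (p = 0.571).

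Depth differed between the classes as well, with overlap. The classes rest on the gaps between listed CpGs, and a CpG that is not listed changes these gaps. Depth could thus itself affect the class of a sequence, which was not tested. Relative to chr1-29 of the same heifer, the median sequence of the 23-base class had 4.61 times the depth (quartiles 3.35 and 6.59), that of the 46-base class 3.18 times (2.28 and 4.47) and that of the remaining sequences 1.23 times (0.969 and 3.26). The windows of chr1-29 with the spacing of the 23-base class had a median of 7.70 times, those of the 46-base class 2.71 times, and all other windows 0.895 times. In calves the pooled depth of the 46-base class ranged from 0.397 to 1.98 times that of chr1-29 and that of the 23-base class from 0.847 to 2.74 times, where heifers had 3.15 to 4.97 and 4.47 to 6.81. A depth of 10 times or more was reached by 53 sequences (5.06%) and by 0.536% of windows. Sequences with a last position of 10 kb or more resembled chr1-29 most in depth, with a median of 0.979 times.

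**Figure D2:**
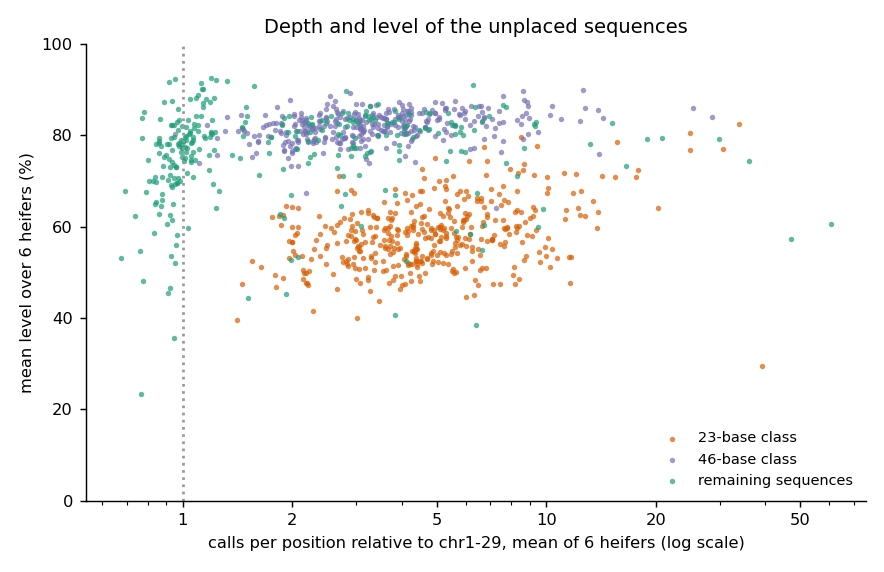
Mean level over 6 heifers (y axis, percent) against calls per position relative to chr1-29 of the same heifer (x axis, log scale, mean of 6 heifers) for 1048 unplaced sequences, coloured by class of CpG spacing; the dotted line marks the depth of chr1-29. The 23-base class lies in a cloud with median 57.9% at a median of 4.61 times the chr1-29 depth, below the 46-base class with median 82.2% at 3.18 times.

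The level of unplaced sequences as a whole was compared with that of chr1-29 in the same animal, and the sign of the difference depended on how positions were weighted and selected. In heifers the pooled level was 75.4, 72.7 and 75.2% in IUCL-H and 70.8, 71.5 and 71.5% in IUHT-H. The levels on chr1-29 of the same heifers were 76.4, 76.1 and 73.5% and 72.4, 76.1 and 74.0%. The unplaced level was the lower in 5 of 6 heifers, the exception being IUCL-H 3, with a mean difference of -1.92 ± 2.17 points (SD, n = 6; two-sided exact permutation test over sign changes, p = 0.125, adjusted 0.292). With every position weighted alike it was -0.026 points (exact permutation test, p = 0.969). It turned to 1.28 points over positions with more than 10 reads and to 0.949 over sequences with at least 50 positions. Each of these levels has a 95% Wilson interval of at most 0.16 points on either side, which covers counting error only, as reads were not tagged as separate molecules.

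In calves the unplaced level was 77.5, 72.1, 78.2, 76.8 and 68.2% in IUCL-B 1 to 5 and 73.5, 78.6, 75.4 and 81.2% in IUHT-B 2 to 5. It lay below chr1-29 in 8 of 9 calves, with IUHT-B 5 the exception, by a mean of -2.49 ± 3.02 points (SD, n = 9; exact permutation test, p = 0.0391, adjusted 0.273). This difference rested on few sequences. Without the sequence with the most calls it was -0.85 (exact permutation test, p = 0.422), and with every position weighted alike it turned to 1.30 (exact permutation test, p = 0.0312). Leaving out any 1 of IUCL-B 2, 4 and 5 and IUHT-B 2 and 4 raised p to between 0.0703 and 0.0781 in the exact permutation test. The single sequence chrGJ059765.1 held 1.96 to 16.4% of the calls on kept sequences in calves. It was the sequence with the most calls in 7 of 9 calves, whereas chrGJ058869.1 led in IUCL-B 4 (2.72% of calls) and in IUCL-B 5 (12.4%), the calf farthest below chr1-29 at -6.93 points.

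**Figure D3:**
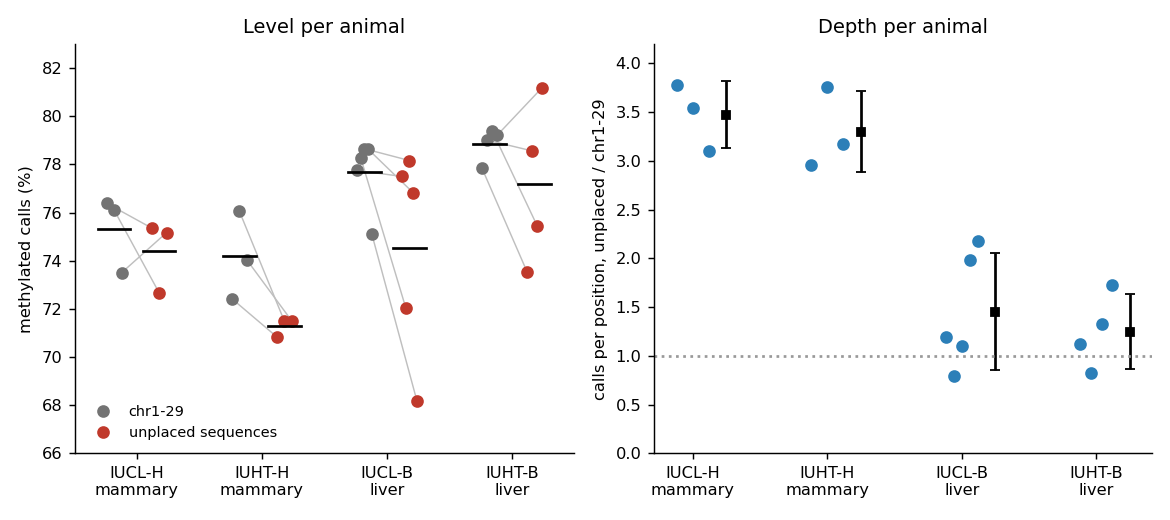
Left, the methylation level (y axis, percent of calls) of unplaced sequences (red) and of chr1-29 (grey) in each animal, with a line joining the values of 1 animal and a bar at the group mean. Right, calls per position on unplaced sequences divided by those on chr1-29 of the same animal, with black squares for the mean and SD of the group; heifers lie at 2.96 to 3.78 and calves at 0.795 to 2.18.

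The comparison of maternal treatments asked whether late-gestation heat stress left a mark on these sequences. In the mammary gland the pooled unplaced level was 74.4 ± 1.502% in IUCL-H and 71.3 ± 0.38% in IUHT-H (SD, n = 3 each), and the groups did not overlap. The difference was -3.12 points, with p = 0.1 in the exact permutation test over 20 splits, the smallest p that 3 against 3 allow. The level on chr1-29 was also lower in IUHT-H (74.2 ± 1.83 against 75.3 ± 1.59%, n = 3 each, overlapping), and relative to chr1-29 the difference was -1.96 points (exact permutation test, p = 0.400).

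Of the spacing classes, the 23-base class had non-overlapping heifer groups, at 59.0 ± 0.87% in IUHT-H and 60.8 ± 0.86% in IUCL-H, a difference of -1.83 points. The 46-base class differed by -0.41 points (82.56 ± 0.92 and 82.98 ± 0.29%) and the remaining sequences by -1.19 points (74.6 ± 1.25 and 75.7 ± 0.96%), and both overlapped. The 23-base class, whose level is low, took 35.5, 38.7 and 39.96% of the kept calls in IUHT-H and 26.3, 35.9 and 23.98% in IUCL-H. The groups overlapped, as IUCL-H 2 lay above IUHT-H 1, and the shares were not tested. The part of this mix in the pooled difference was not tested.

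Sequence by sequence, no mammary difference passed the test. edgeR's quasi-likelihood test, fitted on the 1048 sequences together with the 87278 windows, called 0 sequences and 0 windows at an adjusted p under 0.05 (background 0% called). At an unadjusted p under 0.05 it listed 30 sequences (2.86%) and 3.97% of windows, and limma called 0 sequences. A logistic regression without a term for the spread between animals called 73 sequences (6.97%, background 2.92%). The groups did not overlap, with IUHT-H lower, in 88 sequences (8.40%), against a background of 4.86% of all features, and with IUHT-H higher in 24 (2.29%, background 4.30%). Of the 88, 56 belonged to the 23-base class, 13.4% of that class, 18 to the 46-base class and 14 to the rest. The median difference was -2.04 points in the 23-base class, -0.32 in the 46-base class and -0.17 in the rest, beside -0.36 over all features.

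The smallest mammary p-values belonged to chrGJ058524.1, chrGJ059736.1 and chrGJ059321.1. chrGJ058524.1, of the 23-base class, had 69.7, 67.6 and 69.5% in IUCL-H and 57.9, 56.1 and 57.3% in IUHT-H, from 218 to 373 calls a heifer, and an adjusted p of 1.00 by edgeR (unadjusted 0.00477). The groups lay 11.8 points apart without overlap. chrGJ059736.1 had 65.0, 67.2 and 61.7% against 52.6, 51.8 and 61.5%, also without overlap, although IUCL-H 3 and IUHT-H 3 lay close to each other. chrGJ059321.1 rested on 21 to 42 calls a heifer and its groups overlapped, with the largest SD over heifers of all kept sequences, 18.5 points.

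In the liver the pooled unplaced level was 74.5 ± 4.30% in IUCL-B (n = 5) and 77.2 ± 3.38% in IUHT-B (n = 4). The difference of 2.64 points had p = 0.365 in the exact permutation test over 126 splits, and relative to chr1-29 it was 1.46 points (exact permutation test, p = 0.484). It was 1.05 points without IUCL-B 5 and 1.31 without IUHT-B 5, and with every position weighted alike it was -0.23. The groups overlapped in all 3 spacing classes, with differences of 0.40 points in the 23-base class, -1.48 in the 46-base class and 3.37 in the rest. The effects in liver and mammary gland differed by 5.76 points when treatment labels were permuted within each tissue (exact permutation test over 2520 arrangements, p = 0.0575), and by 3.43 points relative to chr1-29 (p = 0.211).

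For the 519 sequences that also had at least 5 positions in each calf, edgeR called 0 sequences and 0 of 3389 windows between IUHT-B and IUCL-B (background 0% called), with 54 sequences (10.4%) and 15.5% of windows at an unadjusted p under 0.05. limma called 0, and the logistic regression called 453 (87.3%, background 86.9%). Without IUHT-B 5, 1 of 519 sequences and 1 of 3389 windows were called. Non-overlapping groups occurred in 7 sequences with IUHT-B higher (1.35%, background 4.35%) and 11 with IUHT-B lower (2.12%, background 1.61%). The lowest adjusted p was 0.0874, for chrGJ059611.1, at 72.0, 85.7, 70.6, 65.7 and 91.9% in IUCL-B and 97.2, 98.7, 99.6 and 98.8% in IUHT-B. The groups of chrGJ059611.1 did not overlap, whereas those of chrGJ059061.1 (53.3, 32.0, 96.3, 80 and 62.2% against 3.76, 1.30, 3.28 and 49.4%) did, as IUHT-B 5 lay above IUCL-B 2; IUCL-B 1 and 2 had only 15 and 25 calls. chrGJ059099.1 had 82.5 to 99.7% in IUCL-B and 4.55, 85.7, 57.1 and 66.7% in IUHT-B, the last 3 from only 12 to 14 calls a calf.

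The measured levels of single sequences differed more between calves, where fewer positions were covered, than between heifers. Between pairs of heifers the levels of the 1048 sequences had a Pearson r of 0.887 to 0.930 (15 pairs), and between pairs of calves the levels of the 519 sequences had an r of 0.186 to 0.513 (36 pairs), given as descriptions across sequences. Over the same 519 sequences the heifer pairs had an r of 0.8968 to 0.9496. In heifers the median r was 0.902 within treatment groups and 0.900 between them. Across sequences the mean level in heifers and in calves had a Spearman rho of 0.66 over 519 sequences.

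At like numbers of calls, unplaced sequences varied between heifers about as much as windows of chr1-29. The median SD over heifers was 3.41 points for sequences and 5.25 for windows, but sequences held more calls, a median of 329.5 calls a heifer against 76.5. With 100 to 200 calls in the shallowest heifer the medians were 3.97 points for 283 sequences and 3.65 for 13782 windows. With 200 to 400 calls they were 3.07 for 321 sequences and 2.60 for 3306 windows, and with 800 or more 2.04 and 2.32.

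Between tissues the sequences were mostly more methylated in liver, as were windows of chr1-29. The median difference of liver minus mammary gland was 3.42 points over 519 sequences and 3.56 over all features tested, and 350 sequences (67.4%) lay above 0 against 66.04% of windows. By spacing class it was 5.78 points for 134 sequences of the 23-base class, 2.85 for 257 of the 46-base class and 3.33 for 128 others. These medians used all listed positions, which differed between the calf and the heifer libraries. The classes were not compared over shared positions. Non-overlapping tissues, with liver higher, occurred in 9 sequences (1.73%, background 3.79%), and with liver lower in 1 (0.193%, background 0.256%). Relative to chr1-29 the pooled unplaced level differed between tissues by -0.58 points (exact permutation test, p = 0.688), which turned to 0.735 without the sequence with the most calls and to 0.14 without IUCL-H 3. Over positions with more than 10 reads it was -4.49 (exact permutation test, p = 0.0198).

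edgeR called 13 of 519 sequences between tissues (2.505%, background 4.68%), 12 higher in liver (background 4.32%) and 1 lower (background 0.358%). The share of sequences was thus below that of windows, 170 of 3389 (5.02%), a contrast that was not tested. With at least 100 calls in every animal the shares were close, at 7 of 113 sequences (6.2%) and 33 of 517 windows (6.4%). limma called 3 (0.578%, background 4.17%), and the logistic regression called 452 (87.1%, background 85.8%). Leaving out a heifer left 2 to 5 calls (2 without IUCL-H 2, 3 without IUHT-H 1, 4 without IUCL-H 1, IUHT-H 2 or IUHT-H 3, 5 without IUCL-H 3), with 53 to 77 of 3389 windows called (1.56 to 2.27%). Leaving out IUCL-B 5 gave 21 sequences (4.05%) and 274 windows (8.09%). Of the 13, 3 were of the 23-base class, 6 of the 46-base class and 4 of the rest.

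The called sequences were also compared over only those positions that were listed in all 15 animals, an alternative chosen after seeing the data, because the calf libraries cover other positions than the heifer libraries. Of the 13 sequences 8 had such positions, and in 5 of the 8 the sign turned. For 4 of these 5 the difference over shared positions was smaller than the SD of either tissue, at -0.58 points for chrGJ059531.1 (2 positions, as few as 2 calls in an animal), -0.28 for chrGJ059696.1, -4.23 for chrGJ058455.1 (as few as 4 calls) and -2.34 for chrGJ059614.1. The strongest call, chrGJ058978.1, had levels of 78.2 to 80.1% in heifers (mean depth 18.9 times chr1-29) and of 16.7 to 57.9% in calves, a difference of -35.0 points with an adjusted p of 0.00109 by edgeR and no overlap. Over its 9 shared positions it had 25.2 ± 7.83% in heifers (SD, n = 6) and 38.0 ± 10.2% in calves (SD, n = 9), with overlap. A single position took 24.98% of its calf calls and 6.52% of its heifer calls.

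Of these 8, chrGJ059835.1, of the 23-base class, was the only one that kept tissues apart on shared positions. Its level was 51.7 to 53.6% in heifers and 70.7 to 88.2% in calves (median 77.9%), a difference of 25.9 points with an adjusted p of 0.00402 by edgeR. Position 3003 alone held 53.2% of its heifer calls, at 48.95%, and without it the pooled heifer level was 56.8%. In calves the position with most calls, 3396, held 22.02% of them at 88.8%, and without it the pooled level was 77.1%. Over 4 shared positions, with as few as 8 calls in an animal, it was 58.4 ± 7.35% in heifers and 87.3 ± 6.75% in calves. chrGJ060013.1 kept its direction (65.4 ± 16.1 and 88.0 ± 15.0% over 4 positions) with overlap, and chrGJ059910.1 did so with 6.03 points over 2 positions. chrGJ059614.1 and chrGJ058455.1, at 16.0 and 15.5 points above the heifers over all positions, were among those whose sign turned. chrGJ059244.1, called at 23.6 points, had no position listed in every animal. Pooled over the 942 positions of kept sequences listed in every animal, calves had 69.8 ± 5.88% and heifers 68.7 ± 2.66% (exact permutation test over 5005 splits, p = 0.693).

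**Figure D4:**
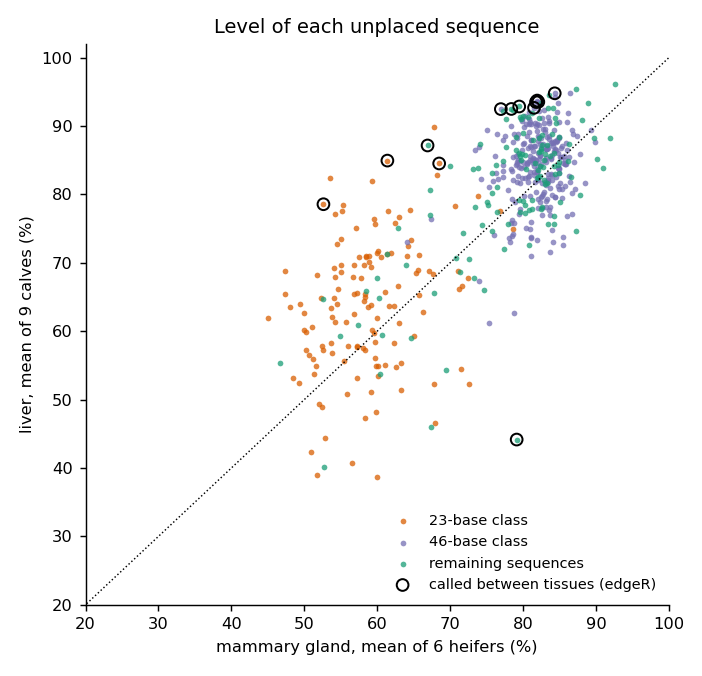
Mean level over 9 calves in liver (y axis, percent) against mean level over 6 heifers in mammary gland (x axis, percent) for the 519 unplaced sequences with at least 5 positions in each calf, coloured by class of CpG spacing, with rings on the 13 called by edgeR and a dotted line of equal levels. The 23-base and 46-base classes lie mostly apart, more clearly on the x axis, with medians of 58.4 and 82.1% in heifers and 64.6 and 84.8% in calves, and the ring below the line is chrGJ058978.1.

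A few sequences carried a large share of the reads. chrGJ059765.1, whose last position is 5626, had 121728 calls over heifers and 498816 over calves, at 116 calls per position in heifers. Its level was 60.9, 70.8 and 49.1% in IUCL-H, 61.8, 63.1 and 58.2% in IUHT-H, and 53.5 to 73.5% in calves (median 58.0%). The IUCL-H heifers lay at both ends of the range and the IUHT-H heifers inside it.

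Along chrGJ059765.1 the level was mostly lower at the earlier sites than at the later ones. With its 95 sites with more than 10 reads in every heifer taken in order, the median level was 41.4% over the first 47 (quartiles 35.4 and 46.6%) and 81.4% over the other 48 (68.4 and 85.7%). In liver it was 36.6% over the first 34 sites and 78.7% over the other 34. Means ranged from 1.13 to 94.2% in heifers, with 1 site under 20%, which lay among the later ones, and 25 over 80%, and from 0.108 to 98.4% in calves. The median SD between animals was 9.94 points in heifers and 18.9 in calves, with a median of 67 reads in the shallowest animal in both tissues.

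**Figure D5:**
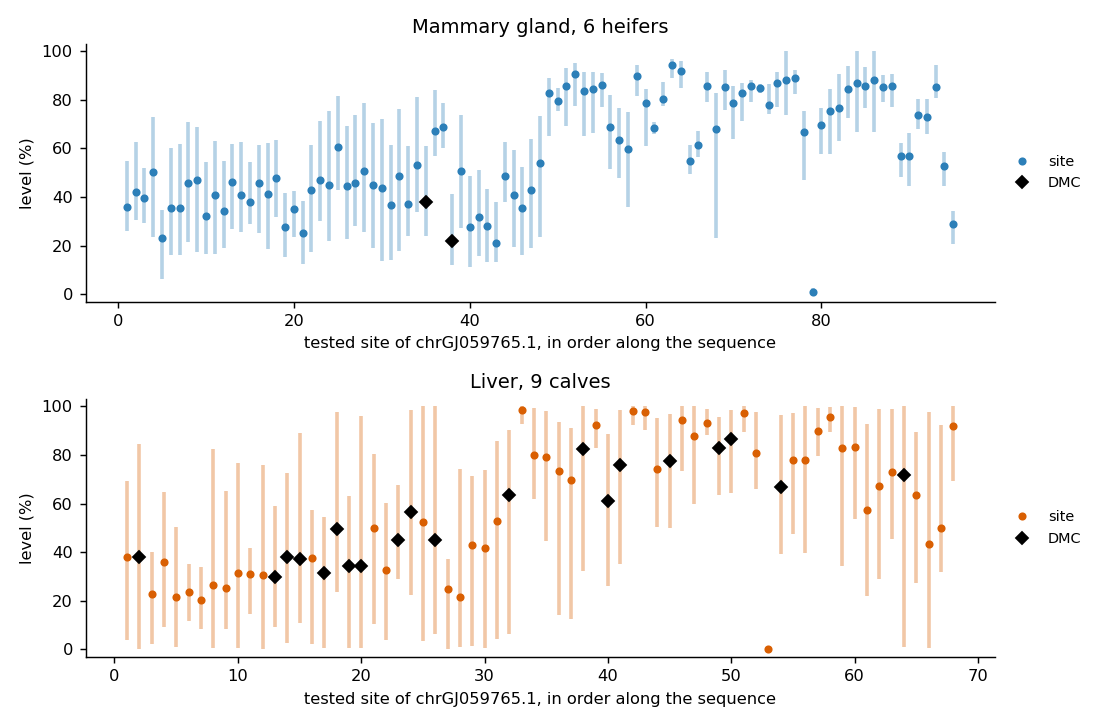
Methylation level (y axis, percent) of the tested sites of chrGJ059765.1 in their order along the sequence (x axis) in 6 heifers (top, 95 sites) and 9 calves (bottom, 68 sites), with the mean as a point, a bar from the lowest to the highest animal and black diamonds for DMCs. Levels are lower in the first part of the order than in the later part in both tissues, and the bars are longer in calves (median SD 18.9 points) than in heifers (9.94).

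The other deep sequences had quite different levels. chrGJ057852.1 (89.5 calls per position in heifers) had 57.4, 71.4 and 48.4% in IUCL-H and 53.6, 61.6 and 52.1% in IUHT-H, with IUCL-H 2 highest and IUCL-H 3 lowest, as on chrGJ059765.1. chrGJ058815.1 (71.4 calls per position) had 78.0, 68.0 and 77.7% and 67.9, 70.8 and 83.6%. chrGJ058456.1, of the 23-base class with 63.9 calls per position, had 80.4 to 84.4%, one of 2 members of its class at 80% or more.

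chrGJ058875.1, also of the 23-base class and with 73.6 calls per position, had the lowest level among sequences with at least 1000 calls in every heifer, at 27.0 to 36.1%. It was set by few positions: a single position held 49.6% of the heifer calls at 20.3%, and with every position weighted alike the mean level was 61.3%. The opposite case was chrGJ058435.1, whose last position is 112580 and whose deepest position held 0.211% of calls. Its level was 84.17, 83.26 and 83.02% in IUCL-H and 78.2, 82.7 and 83.4% in IUHT-H at 2.01 calls per position, and the equally shallow chrGJ058430.1, chrGJ058434.1 and chrGJ058444.1 had heifers at 70.9 to 77.5, 75.6 to 81.1 and 73.5 to 76.9%. chrGJ059505.1, of the 46-base class with 21.0 calls per position, had 82.0 to 84.5% in heifers and 51.7 to 98.0% in calves.

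At mean levels of 85 to 90% lay 54 sequences of the 46-base class, 22 of the remaining ones and 0 of the 23-base class, and the 10 sequences at 90% or more were all among the remaining ones. Among sequences with at least 1000 calls in every heifer, chrGJ060138.1 was highest at 90.2 ± 1.45% (SD, n = 6), followed by chrGJ059844.1 at 86.4 ± 1.34%, chrGJ059330.1 at 86.0 ± 1.92%, chrGJ059932.1 at 85.4 ± 2.46% and chrGJ059554.1 at 84.9 ± 1.19%, all but the first of that class. Low levels were those of chrGJ058875.1, chrGJ059828.1 at 38.6 ± 14.1%, chrGJ059536.1 at 47.4 ± 1.81%, chrGJ059835.1 at 52.6 ± 0.69% and chrGJ057852.1 at 57.4 ± 8.20%.

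Among sequences with at least 1000 calls in every heifer, chrGJ059828.1 differed most between heifers. Its level was 43.8, 62.6 and 22.7% in IUCL-H and 40.2, 34.8 and 27.4% in IUHT-H, from 1820 to 3205 calls a heifer, so that IUCL-H alone spanned the whole range. In calves it ran from 0 to 74.4% with as few as 13 calls. In the same set chrGJ059909.1 had the fifth largest SD, 5.44 points, with IUHT-H 2 lowest at 72.4% and IUCL-H 3 highest at 86.0%.

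Single cytosines were tested by a logistic regression of the calls on treatment, at sites where each animal of the tissue had more than 10 reads. Cytosines whose level differed by 15 points or more with a q-value up to 0.2 were called differentially methylated cytosines (DMCs). The level here was pooled over the reads of a group, so that deep animals weighed more than in a mean over animals. At position 1106 of chrGJ059765.1, a mammary DMC, the pooled difference was -16.1 points. The means over animals were 41.7% in IUCL-H and 34.3% in IUHT-H. In the mammary gland 74 of 4172 unplaced sites were DMCs (1.77%, background 1.54% of all sites), 52 lower and 22 higher in IUHT-H, on 68 of 758 sequences, and on chr1-29 it was 206 of 13697 (1.504%), 150 lower and 56 higher. Leaving out IUCL-H 1 gave 128 DMCs among 4302 unplaced sites (2.98%, against 2.397% of all sites), and leaving out IUHT-H 2 gave 115 among 4593 (2.504%, against 1.96%). With more than 20 reads there were 29 among 2012 (1.44%, against 1.19%), and without the deepest sites 6 among 1681 (0.357%), below the 0.467% of all sites. edgeR on the same sites called 0 (background 0%), and limma called 0 (background 0%).

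By class, 47 of 1993 sites of the 23-base class were mammary DMCs (2.36%, 34 of them lower in IUHT-H), 14 of 1205 of the 46-base class (1.16%) and 11 of 689 on the remaining kept sequences (1.60%). The background was 1.54% of all tested sites. chrGJ059828.1 held the most DMCs, 3 of its 21 tested sites, all lower in IUHT-H. chrGJ059765.1, chrGJ057852.1, chrGJ058755.1 and chrGJ058231.1 held 2 each, of 95, 38, 8 and 7 tested sites. On chrGJ059828.1, IUCL-H 3 lay below every IUHT-H heifer over the whole sequence.

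In the liver 56 of 164 unplaced sites were DMCs (34.1%, background 33.1%), 26 higher and 30 lower in IUHT-B, on 24 of 34 sequences, and chr1-29 had 240 of 719 (33.4%). The spread between calves of a group was large against the counting error at these sites: the median ratio of observed to binomial variance was 57.0 on unplaced sites and 27.5 on chr1-29, where it was 1.13 on both in the mammary gland. Depth moved with this ratio between the tissues and within liver, but not within the mammary gland. The median reads per site and animal were 239.5 on unplaced sites and 124 on chr1-29 in liver, and 36 and 47 in the mammary gland. The part of depth in the ratio was not tested. edgeR called 3 of the 164 sites (1.83%, background 1.44%) and limma 0 (background 0.222%). chrGJ059765.1 held 20 of the 56 DMCs and 68 of the 164 tested sites, so that 29.4% of its sites were DMCs, and chrGJ057852.1, chrGJ059097.1, chrGJ059608.1 and chrGJ059736.1 held 3 each.

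Of the names outside the kept set, 12 had calls in every calf and in no heifer. chrGJ059347.1 led with 59017 calls, 1890 to 18419 a calf at 59 to 372 positions, and its level was 77.6, 76.4, 86.8, 91.4 and 90.5% in IUCL-B 1 to 5 and 90.1, 83.2, 88.8 and 82.9% in IUHT-B 2 to 5. The treatment groups overlapped. Each heifer had 0 calls among 13949097 to 20240625, which allows a share of up to 1.48e-05 to 2.15e-05% of calls. chrGJ057928.1 followed with 9430 calls at 57.0 to 88.8% and chrGJ059417.1 with 9159 calls at 46.1 to 99.5%, each over at most 42 positions a calf. chrGJ057138.1 and chrGJ058446.1 had 1927 and 1740 calls, each with as few as 2 calls in a calf, and the first over 1 or 2 positions. Others of the 12 names rested on as few as 1 call in a calf. The reverse case, calls in every heifer and in no calf, held 16 names with at most 9 positions in a heifer. As the calves were males and the heifers females, sex, tissue, age and library coverage cannot be told apart in this pattern.

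The share of all calls that fell on kept unplaced sequences was 2.99 to 4.34% in heifers and 1.54 to 8.62% in calves, with IUHT-B 5 at the top. The tissue difference of -0.29 points was within the spread (exact permutation test, p = 0.835), and without IUHT-B 5 it was -0.96 (exact permutation test, p = 0.0553).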

How the data were processed

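Genomic DNA of liver (9 bull calves) and mammary gland (6 heifers) was measured by double-enzyme reduced representation bisulfite sequencing. Per the submitters' processing notes, the authors used FastQC, Trim Galore 0.4.4 and Bismark 0.17.0 with the build UMD3.1, and the study's methods name other versions of Trim Galore and Bismark and the build UMD3.1.1. The authors deposited, for each animal and CpG cytosine, the methylated and unmethylated read counts and their percent. Bismark keeps reads with 1 best alignment, so reads that fit several copies equally are not represented. No genome of this build was used here, so no sequence, length or base composition is given.

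Counts were pooled per unplaced sequence and animal, and the deposited percent was averaged over positions as an alternative. Windows of 5 kb on chr1-29 passed the same minimum. Per-animal values were tested by exact permutation (two-sided), with Benjamini-Hochberg adjustment over 14 tests. edgeR 4.0.16 (quasi-likelihood test, methylated and unmethylated counts with an intercept per animal) was fitted over sequences and windows together, with Benjamini-Hochberg adjustment over both. Its check on simulated counts covered the treatment comparisons only. The spread between animals in it was set and not estimated from the data, so it cannot show how the test behaves at the spread of the calves. limma 3.58.1 on log odds and logistic regression were alternatives, beside other read and position minimums, left-out animals and a replicate block. R 4.3.3, Python 3.11.15 and scipy 1.17.1 were used. Each sample was taken as a separate animal, as labelled.

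The sequences named are the 10 with the most calls over heifers, the 5 highest and lowest heifer levels and the 5 largest SDs among those with at least 1000 calls in every heifer, the 5 deepest, those with the smallest p or called per comparison, and those with the most DMCs. Of names outside the kept set, up to 5 with calls in every calf and no heifer are named. Sequences tied in DMCs, and chrGJ058869.1, chrGJ059910.1, chrGJ059531.1 and chrGJ059696.1, were named after their values were seen. The members and lists were chosen with earlier results of these data known. Replicate numbers of calves were taken as animal IDs and not as pairs. Deviations of same-numbered calves from their group means had r of -0.0528 to 0.0393 over 346 sequences. This r cannot decide whether they shared a block, as levels differed widely between calves.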

Additional observations from a re-analysis of the deposited data

How the results depend on the processing

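Of 233 alternative values 162 kept their direction and side of the threshold (an unadjusted p of 0.05 for levels and shares of the whole set) or, for counts and values without a test, stayed within 1.5 times or 1 SD, and alternatives on shared positions, on the sequence with most calls, on 20 positions per calf and on class cut-offs were chosen after seeing the data. The 46-base class held 427, 341 and 150 sequences at cut-offs of 10, 20 and 30%. The cause of the changes below was not tested. Unplaced minus chr1-29 in mammary gland turned to 1.28 with more than 10 reads and 0.949 with 50 positions. In liver it was 1.30 as a mean of the percent, -0.54 without the deepest positions (above a high percentile of reads), -0.36 without 10 sequences, -2.29 over all names, -1.26 with 50 positions, -1.96 without IUCL-B 4 and 5, -0.85 without the sequence with most calls, and from -3.05 to -1.94 without 1 calf, with the unadjusted p above 0.05 without IUCL-B 2, 4 or 5 or IUHT-B 2 or 4. The liver treatment difference turned to -0.23 (mean of percent) and -0.080 (without the deepest positions). The tissue difference relative to chr1-29 turned to 1.33, 2.11, 1.17 (without 10 sequences) and 0.74 (without the top sequence), ranged from -1.14 to 0.14 without 1 animal (0.14 without IUCL-H 3), and was -4.49 with more than 10 reads (exact permutation test, p = 0.0198). The tissue difference in share of calls turned to 0.116 with 50 positions and 0.0766 without IUCL-B 4 and 5. The replicate block on calves 2 to 5 gave a liver difference of 3.38 (exact permutation test, p = 0.375) and 0 sequences called by edgeR.

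Counts of sequences are followed by windows of chr1-29 called in the same fit. Logistic regression called 73 sequences in mammary gland (2507 windows), 453 in liver (2942) and 452 between tissues (2900). In liver an adjusted p under 0.2 gave 10 (196 of 3389 windows), and 1 was called without IUHT-B 5 (1 of 3389), with 100 calls (0 of 545), with no minimum (47 of 49941) and with 20 positions per calf (0 of 158). Between tissues the count was 13 (170 windows) as reported, 76 at 0.2 (700), 3 by limma (160), 2 to 21 without 1 animal (53 to 274), 31 without IUCL-B 4 and 5 (383), 3 with 10 kb windows (58 of 7772), 7 with 100 calls (33 of 517), 8 without the deepest positions (142 of 3359) and 1 with 20 positions (3 of 158). Mammary DMCs numbered 29 with more than 20 reads (1.44% of unplaced and 1.19% of all sites), 6 without the deepest positions (0.357 and 0.467%), 10 at 25 points (0.2397 and 0.184%), 24 at a q-value of 0.05 (0.575 and 0.563%), 78 to 128 without 1 heifer (115 without IUHT-H 2, 128 without IUCL-H 1), and 0 by edgeR and limma. Liver DMCs numbered 36 with more than 20 reads (31.9 and 27.7%), 107 with at least 5 (40.1 and 36.8%), 13 without the deepest positions (56.5 and 38.5%), 24 at 25 points (14.6 and 17.4%), 88 without IUCL-B 4 and 5 (36.2 and 37.4%), 3 by edgeR and 0 by limma. The ratio of the median SD of sequences to windows was 0.649, and 1.09, 1.09, 1.18 and 1.02 at 20 to 50, 100 to 200, 200 to 400 and 400 to 800 calls. It was below 1 in the other classes of calls. At 50 to 100 calls the medians were 4.78 points for sequences and 5.00 for windows, and at 800 or more 2.04 and 2.32. On shared positions the tissue difference was 12.8 for chrGJ058978.1, -0.58 for chrGJ059531.1, -0.28 for chrGJ059696.1, -4.23 for chrGJ058455.1 and -2.34 for chrGJ059614.1.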
